A study of Mus musculus with 8 samples.

Results

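Primary mouse embryonic fibroblasts that carried 1 functional Tfam allele and no Zbp1 (Tfam+/-Zbp1-/-) were compared with fibroblasts that carried 1 functional Tfam allele and intact Zbp1 (Tfam+/-). Each genotype had 2 RNA-seq libraries, so the comparison used 4 of the 8 libraries of the series, chosen by the genotype in their labels. The other 4 libraries were 2 of WT and 2 of Zbp1-/- fibroblasts. They also entered the estimate of spread behind the p-values and the filter on low values. All cells came from embryonic day 14 embryos, were passaged 2 times in medium with 10% fetal bovine serum and received no treatment. Both groups compared share the missing Tfam allele, so the contrast measures what differed with Zbp1 in cells that already had reduced Tfam. The sources used here do not say how each allele was made, or whether a library held 1 embryo or several. Nothing says that replicates came from separate embryos or cultures, so the p-values measure only the spread between these libraries, which may be technical.

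TFAM packages mitochondrial DNA and is needed to copy and transcribe it. ZBP1 is a sensor of nucleic acids in the Z conformation that can start cell death and interferon signalling through RIP kinases, and its own gene is induced by interferon. Embryonic fibroblasts are a mixed mesenchymal culture taken from most of the embryo body. They keep HOX and other positional transcription factors of the place they came from, secrete collagen and elastic fibres, and respond to WNT and BMP ligands.

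Deposited normalized counts summed to between 16752835 and 18303036 per library, and between 16051 and 16261 genes were above 0. Tfam+/- replicate 1 stood apart from its partner. The log2 levels of the Tfam+/- libraries correlated across genes at 0.973, against 0.992 for the double-mutant pair, and Tfam+/- replicate 1 deviated from its genotype mean in the same genes as Zbp1-/- replicate 2 (r across genes of 0.70). Genes are not independent replicates. Xist, the RNA that silences an X chromosome, was at 7044 in Tfam+/- replicate 1 and 9113 in Zbp1-/- replicate 2, against 14405 to 19076 in the other 6 libraries, and none of 4 Y-linked genes exceeded 1.06 in any library. The 93 cytosolic ribosome genes summed to 1060281 and 1084285 in these 2 libraries, against 831911 to 910172 in the others. The 10 nuclear retained transcripts, Xist included, summed to 28450 against 37451 in the other Tfam+/- library. In Zbp1-/- replicate 2 they summed to 40009.9 against 51258 in the other Zbp1-/- library. Xist itself was at 14405 and 18454 in those other libraries, so these sums are not separate from its lower level. The part of these differences in the results was not tested. Named genes whose call ended without Tfam+/- replicate 1 are marked, and a list's count without it is given where it differed. Tfam was at 278 and 365 normalized counts in the Tfam+/- libraries and at 424 and 375 in the double-mutant libraries, below the 629 and 610 of WT. The difference between both Tfam+/- genotypes did not pass the test (log2 change 0.32 ± 0.21, SE, limma adjusted p = 0.395). Zbp1 was at 64.6 and 69.8 in Tfam+/- and at 0.862 and 2.69 in the double mutant, a log2 change of -4.70 ± 0.60 (SE, limma adjusted p = 0.00793). In WT cells Zbp1 was at 7.34 and 3.19, so the gene was low there too.

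Of 13267 genes with a mean of at least 10 normalized counts over the 8 libraries, 440 were higher in the double mutant, which is 3.32% of genes tested. Lower were 308, or 2.32%. Together these 748 genes were 5.64% of those tested. A gene was called at a limma adjusted p under 0.05, from log2(normalized count + 1), and every fold is on that scale. The list of interferon-stimulated genes held 72 of the 308 falls and none of the 440 rises, so the rises and 236 falls lay outside it. In each of the 748 called genes both double-mutant libraries lay on 1 side of both Tfam+/- libraries. That was also true of 42.4% of all genes on the higher side and 13.5% on the lower side, so it carries little weight alone. A stricter measure was the gap, the distance on the log2 scale between the nearest libraries of the 2 genotypes. A gap of at least 1 was found for 249 genes on the higher side (1.88%) and 196 on the lower side (1.48%), and 204 (1.54%) and 160 (1.21%) of these were also called.

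The rises were mostly of moderate level and moderate size. Their median level was 164 normalized counts in Tfam+/- and 340.5 in the double mutant, against 429 and 478 for all genes tested, and 427 of the 440 are protein coding. The median log2 change of the rises was 1.13 and the range 0.36 to 4.38. The median over all genes was 0.14, so the double-mutant libraries sat slightly higher as a whole. Trimmed mean (TMM) scaling of the libraries brought that median to 0.03 and gave 322 rises (2.43%) and 407 falls (3.07%), a larger share of falls than the 440 and 308 above. All 322 of those rises were among the 440. With Tfam+/- replicate 1 left out, 298 genes were called higher (2.25%) and 169 lower (1.27%), and 262 of the 440 rises and 106 of the 236 falls outside the interferon list were called again. Leaving out a double-mutant library left 1 library of that genotype, which is assumed to vary like the others. Nearly all of the 748 calls were then lost, whichever double-mutant library was left out. Every one of the 748 kept its direction in all 8 fits that left out 1 library. That was fixed in advance, because the libraries of the 2 genotypes did not overlap in any of them.

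**Figure D1:**
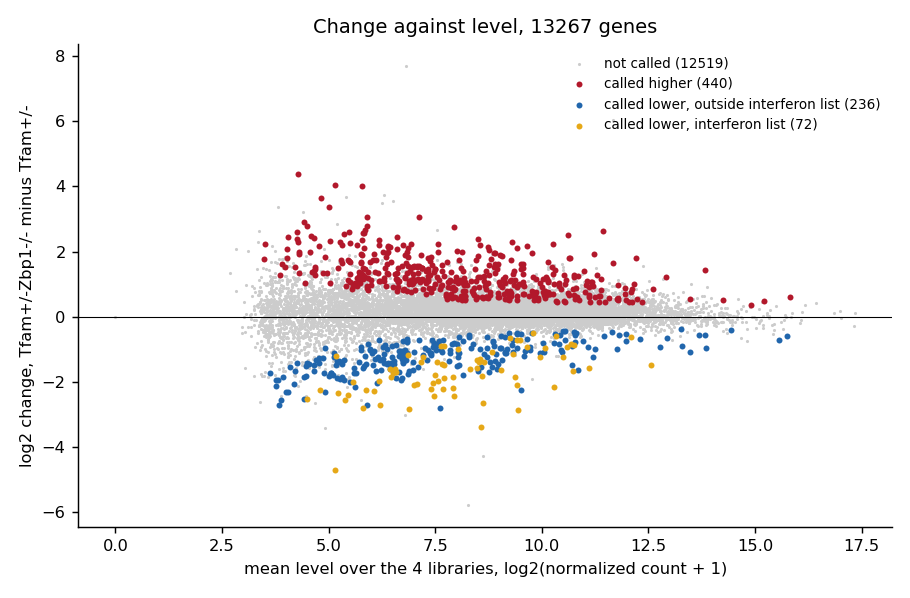
Each point is 1 of 13267 genes; the horizontal axis is the mean level over the 4 libraries as log2(normalized count + 1), and the vertical axis is the log2 change from Tfam+/- to Tfam+/-Zbp1-/-. The 440 rises (red) spread over the whole range of levels, as do the 236 falls outside the interferon list (blue), and the 72 interferon falls (yellow) are all below 0.

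Secreted and membrane proteins were among the largest rises. Ordered by gap, the first was Slc14a2, a urea transporter, at 2.53 and 3.6 normalized counts in Tfam+/- and at 71.3 and 61.4 in the double mutant (log2 change 4.06 ± 0.36, SE, limma adjusted p = 0.00331). The chemokine Cxcl15 was at 3.87 and 7.25 against 106 and 97.6, a log2 change of 4.02 ± 0.28 (limma adjusted p = 0.00244). Both genes were nearly silent in Tfam+/- cells, and both double-mutant libraries stood above all 6 others. C2cd4a, a nuclear protein induced by inflammation, was at 2.17 and 0 against 34.4 and 37.6. Its log2 change of 4.38 rests on a Tfam+/- level of a few normalized counts, and it was 2.78 with a pseudocount of 5 and 6.24 with 0.1. Phyhip, which binds a peroxisomal enzyme, was at 4.83 and 1.92 against 51.2 and 51.2 (log2 change 3.66). Phyhip was as high in Zbp1-/- cells, at 60.4 and 65.3, and low in WT, at 0.953 and 3.62.

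Several of the others are neuronal or signalling genes. Lrrtm3, a synaptic adhesion protein, was at 32.9 and 24.6 against 234 and 256 (log2 change 3.06). Plppr1, a neurite-associated membrane protein, was at 2.87 and 7.22 against 48.5 and 66.8 (log2 change 3.36), and Rims2, a presynaptic scaffold, at 15.6 and 14.3 against 84.6 and 105 (log2 change 2.57). Double-mutant libraries lay far above Tfam+/- in each. Adcyap1, the neuropeptide PACAP, was at 12.1 and 16.4 against 102 and 103, and the 31.8 and 38.7 of WT lay between. Notum, which removes the lipid from WNT ligands, was at 3.46 and 4.86 against 37.4 and 36.8 (log2 change 2.90, limma adjusted p = 0.0358). Notum lost its call without Tfam+/- replicate 1 (adjusted p = 0.122) and without replicate 2 (adjusted p = 0.0611).

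Penk, which encodes the enkephalin precursor, was both among the largest rises and abundant. It was at 832 and 720.3 in Tfam+/- and at 4819.5 and 4730.5 in the double mutant, with WT at 1199 and 1153. The log2 change was 2.62 ± 0.13 (SE, limma adjusted p = 0.000711), and it held without any single library (2.52 to 2.73). Comp and Prg4, both cartilage and joint matrix proteins, were at 15.5 and 8.64 against 114 and 96.1 and at 106 and 125 against 600.2 and 627. In Prg4 the Tfam+/- and double-mutant libraries were on opposite sides of WT, at 182 and 211. Tmem26, a membrane protein, was at 54.3 and 71.6 against 408 and 441. Rarres1, a retinoic acid responsive gene, was at 17.1 and 16.9 against 89.2 and 92.4, and its Tfam+/- libraries were nearly equal. Lix1 (9.29 and 14.5 against 75.6 and 74.4) and Tnfaip8l3 (11.7 and 10.3 against 78.6 and 60.2) completed the 16. Without 1 double-mutant library the limma adjusted p of these 16 genes lay between 0.0324 and 0.227, and only Penk stayed called both times. Their log2 changes over all fits that left out 1 library were 2.28 to 5.21.

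**Figure D2:**
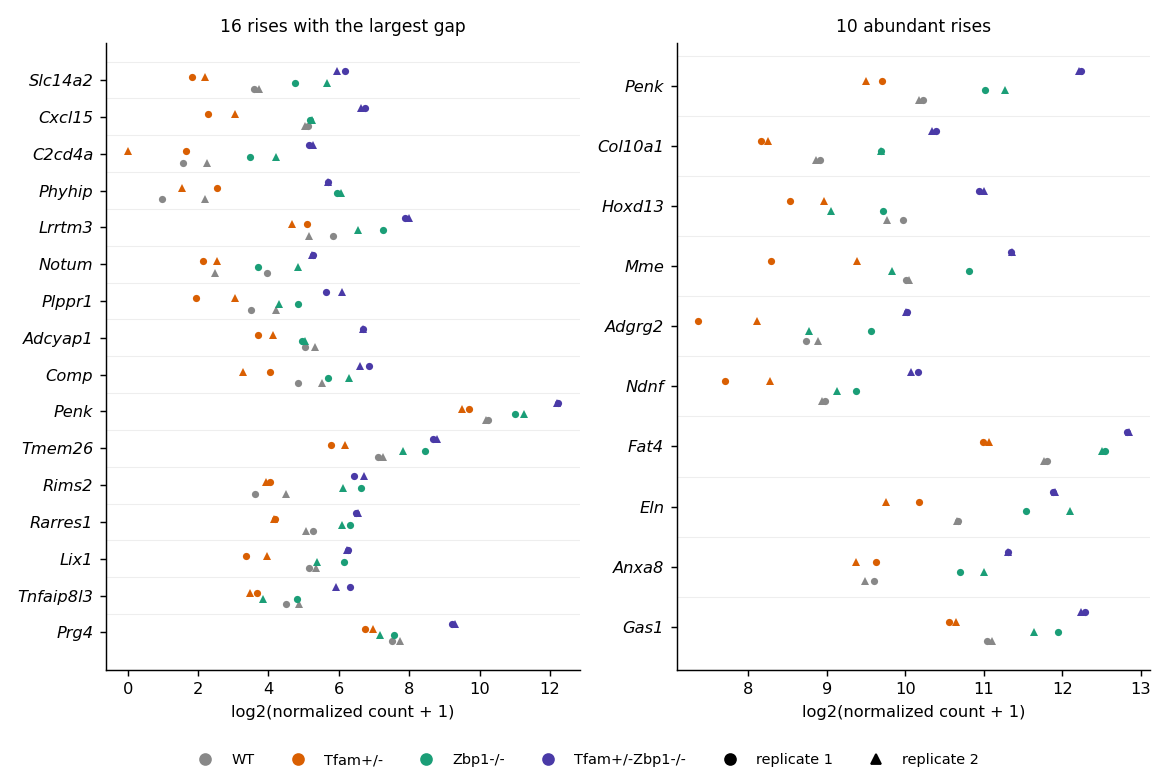
Normalized counts of each library as log2(normalized count + 1), for the 16 rises outside the interferon list with the largest gap (left) and the 10 with a double-mutant mean of at least 1000 (right); colour is genotype, and circle and triangle are replicates 1 and 2. The double-mutant points lie to the right of the Tfam+/- points in every row, and in most rows WT and Zbp1-/- lie between them.

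Among genes with a double-mutant mean of at least 1000, the 10 rises with the largest gap included Penk, described above, and Hoxd13, described below. Col10a1, the collagen of hypertrophic cartilage, was at 284 and 304 in Tfam+/- and at 1341 and 1295 in the double mutant (log2 change 2.16 ± 0.10, SE, limma adjusted p = 0.000711). Fat4, a giant protocadherin of planar polarity, was at 2040.2 and 2139.9 against 7268 and 7374 (log2 change 1.81 ± 0.09). Replicates of both genes differed by far less than the genotypes, and both held without any single library. Eln, which encodes elastin, was at 1158 and 865 against 3764 and 3846 (log2 change 1.93), and Gas1, a hedgehog co-receptor, at 1507 and 1605 against 5015 and 4815 (log2 change 1.66). Anxa8, a calcium-dependent membrane binding protein, was at 787 and 658 against 2538 and 2529.9, while its WT libraries, at 776 and 719, overlapped those of Tfam+/-. In 3 genes Tfam+/- replicate 1 was clearly the lower. Mme, the peptidase neprilysin, was at 312 and 667.996 against 2608 and 2634, Adgrg2, an adhesion receptor, at 164 and 275 against 1040.4 and 1030.4, and Ndnf, a secreted neurotrophic factor, at 207 and 309 against 1144 and 1071. Their log2 changes moved from 2.52, 2.28 and 2.12 to 1.97, 1.91 and 1.84 without it and stayed called (adjusted p = 0.0465, 0.0312 and 0.00943). Mme lost its call without either WT library (adjusted p = 0.0542 and 0.0541). Without 1 double-mutant library 7 of these 10 lost their call, with limma adjusted p up to 0.139; Penk, Col10a1 and Fat4 did not.

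Called HOX transcription factors moved in opposite directions by cluster. All HOX genes called are named, and Hoxa11, which goes beyond the rule for named genes and was decided after their values were seen. HOX genes lie in 4 clusters, and their order along the cluster follows the body axis, with the highest paralog numbers used in the tail and in the distal limb. Of 36 HOX genes tested 7 rose and 8 fell (6 and 2 without Tfam+/- replicate 1), against 3.32% and 2.32% of all genes, and the median log2 change was -0.32. In HOXA and HOXD, 7 of the 8 tested with paralog numbers 10 to 13 rose, with a median log2 change of 1.53, while none of the 12 with lower numbers was called. The 8 include the antisense transcript Hoxa11os. Among those 12 the highest log2 change was 0.94 (limma adjusted p = 0.061), above the lowest of the 8, 0.84. HOXB gave 5 falls of 9 tested (median -0.88) and HOXC 3 of 7 (median -0.61). Trimmed mean scaling shifted these medians to 1.41, -0.99 and -0.72 and reversed none of them.

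Hoxd13, the most posterior gene of its cluster, was at 367 and 499 in Tfam+/- and at 1959 and 2053 in the double mutant (log2 change 2.23 ± 0.24, SE, limma adjusted p = 0.00484). WT, at 998 and 871, lay between. Hoxa13 was at 43.7 and 23.9 against 125 and 132 (log2 change 1.96), Hoxd11 at 103 and 97.7 against 299 and 306 (1.59), Hoxd10 at 45.6 and 61.05 against 146 and 168 (1.55), and Hoxd12 at 91.5 and 59.95 against 219 and 206 (1.51). Both double-mutant libraries lay at more than the highest WT value in all 5. Hoxa10 was at 245 and 301 against 533 and 558 (1.00). The antisense transcript Hoxa11os was at 103 and 72.99 against 263 and 202 (1.40), and Hoxa11, which it overlaps, at 203 and 177 against 328 and 353 and not called (adjusted p = 0.0728). Whether the counting used strand is not stated in those sources, so reads of these 2 cannot be told apart. Hoxa10 lost its call without Tfam+/- replicate 1 (0.85, adjusted p = 0.0904), and Hoxa11os and Hoxd12 without Tfam+/- replicate 2 (adjusted p = 0.0531 and 0.0539). The same 3 lost it without either WT library, with limma adjusted p up to 0.0752, and all 7 without either double-mutant library, at 0.0561 to 0.201.

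Among the falls, Hoxb9 was at 935 and 883 in Tfam+/- and at 471 and 457 in the double mutant (log2 change -0.97 ± 0.10, SE, limma adjusted p = 0.00438). Hoxc10 was at 255 and 237 against 118 and 119.5 (log2 change -1.04). WT and Zbp1-/- libraries of both genes sat near Tfam+/-, at 836 to 992 for Hoxb9 and 195 to 254 for Hoxc10, so the double mutant was the genotype that stood apart. Hoxb4, Hoxb6, Hoxb7, Hoxb8, Hoxc5 and Hoxc6 had log2 changes of -1.21 to -0.61. None of these 6 was called without Tfam+/- replicate 1 (adjusted p 0.0618 to 0.146), nor without either WT library (up to 0.130). Without Tfam+/- replicate 2 Hoxb4 and Hoxc5 were lost (adjusted p = 0.0845 and 0.0547), and without either Zbp1-/- library Hoxb4, Hoxb7 and Hoxb8 (up to 0.0592). Without a double-mutant library all 8 falls were lost, with limma adjusted p of 0.0684 to 0.342.

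**Figure D3:**
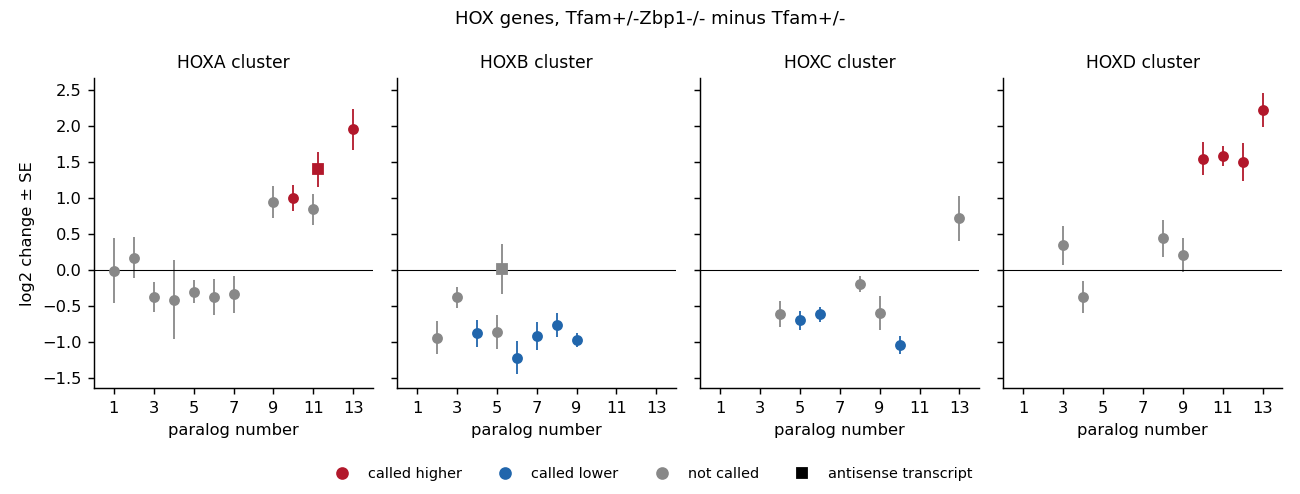
Log2 change from Tfam+/- to Tfam+/-Zbp1-/- with its SE for each of 36 HOX genes, by cluster (panels) and paralog number (horizontal axis); squares are antisense transcripts. Red points, called higher, are found only at numbers 10 to 13 of HOXA and HOXD, and blue points, called lower, only in HOXB and HOXC.

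Some of the transcription factors of a gene act close to its start. The 200 bases before a start annotated in RefSeq are shown for 2 rises and 2 interferon falls described here. Sites further away were not searched. Sequences are from RefSeq on GRCm38.p6, printed 5′ to 3′ on the strand of the gene, with motif matches in capitals (the core of the interferon response element, which is GAAA, any 2 bases and GAAA, the TATA box TATAAA, the AP-1 site TGANTCA and the GC box GGGCGG, on either strand, with overlapping matches joined). They lie at chr2:74668025-74668224 (Hoxd13, plus strand), chr10:34389781-34389980 (Col10a1, plus), chr5:120907526-120907725 (Oas1a, minus) and chr4:156200819-156201018 (Isg15, minus). For Oas1a the start is that of the promoter table, and 19 of the bases shown lie inside the gene's widest annotated span.
Hoxd13: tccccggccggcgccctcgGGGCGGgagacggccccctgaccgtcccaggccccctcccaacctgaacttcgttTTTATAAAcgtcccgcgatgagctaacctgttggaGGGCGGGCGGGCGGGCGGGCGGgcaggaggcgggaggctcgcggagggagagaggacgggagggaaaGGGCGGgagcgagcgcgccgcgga
Col10a1: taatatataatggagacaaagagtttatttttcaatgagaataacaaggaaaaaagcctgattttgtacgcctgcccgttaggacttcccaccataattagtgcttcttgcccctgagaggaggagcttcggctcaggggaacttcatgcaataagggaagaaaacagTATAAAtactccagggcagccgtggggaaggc
Oas1a: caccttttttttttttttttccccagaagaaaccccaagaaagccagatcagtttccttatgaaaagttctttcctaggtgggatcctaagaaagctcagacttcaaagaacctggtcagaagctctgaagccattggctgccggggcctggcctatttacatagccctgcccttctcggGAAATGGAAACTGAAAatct
Isg15: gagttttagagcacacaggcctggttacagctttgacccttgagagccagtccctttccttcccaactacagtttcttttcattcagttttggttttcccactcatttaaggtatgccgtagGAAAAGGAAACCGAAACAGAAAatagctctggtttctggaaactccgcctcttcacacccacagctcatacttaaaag
Hoxd13 has GC boxes and TATAAA, Col10a1 has TATAAA alone, and Oas1a and Isg15 have overlapping matches to the interferon response element. In the 250 bases before the start, that element was in 3.15% of the 10384 tested genes with a promoter in the table, in 3.23% of 310 rises and in 3.07% of 163 falls outside the interferon list. It was in 49.1% of 55 interferon falls. TATAAA was in 7.96% of tested genes, 12.9% of rises, 18 of the 163 other falls and 18.2% of interferon falls. GGGCGG was in 64.5%, 64.8%, 46.0% and 32.7% in the same order, TGANTCA in 5.60%, 6.45%, 8.59% and 23.6%, and the E-box CANNTG in 61.0%, 60.3%, 69.9% and 63.6%. A match describes letters and is not a binding site.

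Other transcription factors that pattern mesenchyme were called in 16 of 94 tested, all 16 higher, against 3.32% of all genes. Their median log2 change was 0.43 against 0.14 over all genes, and 23 of the 94 were below 0. With trimmed mean scaling 12 were called higher and 3 lower. Lhx2, a LIM homeobox factor of the limb bud, was at 39.99 and 43.6 in Tfam+/- and at 209 and 193 in the double mutant (log2 change 2.24 ± 0.17, SE, limma adjusted p = 0.00251). Tbx4, a T-box factor of the hindlimb and lung, was at 105 and 95.4 against 399.7 and 423 (log2 change 2.02), and Msx1, a BMP-responsive homeobox factor, at 236 and 154 against 742 and 757 (log2 change 1.97). Both double-mutant libraries lay above the 6 others in all 3. The other 13, named after their values were seen, were Osr2, Meox2, Lhx9, Pax9, Prrx2, Pitx1, Gata3, Ebf3, Tbx5, Twist1, Pbx3, Tbx15 and Sim2. Leaving out Tfam+/- replicate 1 left the list with 12 rises. Lhx2, Tbx4 and Msx1 were called without either Tfam+/- library, and lost their call without either double-mutant library (limma adjusted p 0.0530 to 0.0701).

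Matrix lists held more rises than falls, against 3.32% of all genes called higher, 2.32% called lower and a median log2 change of 0.14. Of 23 cartilage, bone and tendon genes 8 rose and none fell (median log2 change 0.73), and 6 rose without Tfam+/- replicate 1. Of 40 collagens 6 rose and none fell (median 0.30, or 0.19 without Tfam+/- replicate 2 and with trimmed mean scaling), and 4 rose without Tfam+/- replicate 1. The collagens gave 5 rises and 2 falls without Tfam+/- replicate 2. Of 73 matrix glycoproteins and proteoglycans 18 rose and 3 fell (median 0.28), or 13 and 3 without Tfam+/- replicate 1 and 12 and 3 without replicate 2. Their summed level was nevertheless lower, at 848050 and 830260 in Tfam+/- and 802100 and 798700 in the double mutant. That of the collagens was 620030 and 530900 in Tfam+/- and 648500 and 642050 in the double mutant. Hapln1, which links hyaluronan to proteoglycans, was at 8.19 and 24.8 in Tfam+/- and at 88.9 and 106 in the double mutant (log2 change 2.67). The low value was Tfam+/- replicate 1, and without it the change was 1.92 (limma adjusted p = 0.0310). Col9a1 and Col9a2, chains of cartilage collagen IX, were at 3.28 and 4.93 against 13.2 and 19.6 and at 5.903 and 6.72 against 20.3 and 22.9. Both collagens were near the filter on low values, and Col9a1, with an adjusted p of 0.0497, was called only with all 8 libraries among the fits that left out 1. Fbn2, a microfibril protein, was at 7885 and 7976 against 21382 and 21069.5 (log2 change 1.42 ± 0.08, limma adjusted p = 0.00131), and it held without any single library. Lum, a small leucine-rich proteoglycan, was at 550.1 and 913 against 2426 and 2510.3 (log2 change 1.80).

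The 3 falls among matrix glycoproteins and cross-linkers, named after their values were seen, were Loxl2, Tnc and Lama2. Loxl2, which cross-links collagen, was at 16078 and 15176 against 7389.8 and 7267 (log2 change -1.09 ± 0.08, SE, limma adjusted p = 0.00251). Tnc, or tenascin C, was at 63636 and 57228 against 36369.6 and 36454 (-0.73), and the laminin chain Lama2 at 1939 and 2217 against 1437 and 1499 (-0.50). Both double-mutant libraries lay below both Tfam+/- libraries in each. Of 44 proteases and inhibitors 7 rose and 2 fell (median 0.08, or -0.03 with trimmed mean scaling), and 3 and 2 without Tfam+/- replicate 1. Adamts3, a procollagen peptidase, was at 39.2 and 52.6 against 173 and 172, and Adamts17, a secreted protease, at 10.3 and 6.85 against 27.2 and 25.3. Without Tfam+/- replicate 1 the calls of Col9a1, Col9a2, Lum and Adamts17 were lost (adjusted p = 0.163, 0.0760, 0.0632 and 0.0593). Without replicate 2 those of Col9a1, Lama2 and Adamts17 were lost (0.0610, 0.0743 and 0.0786). Trimmed mean scaling ended the calls of Col9a1 and Adamts17 (0.0618 and 0.0539). Leaving out a WT library ended the calls of Hapln1, Col9a1, Col9a2, Lum, Lama2 and Adamts17 (limma adjusted p up to 0.133), and leaving out a double-mutant library those of all matrix genes named here except Col10a1 and Fbn2 (up to 0.335).

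Ligands and antagonists of WNT and BMP signalling were among the rises. Of 53 WNT pathway genes 13 rose and 1 fell (median log2 change 0.48), or 12 and 1 without Tfam+/- replicate 1, against 3.32% and 2.32% of all genes. Of 66 TGF-beta and BMP pathway genes 11 rose and 1 fell (median 0.31). That list gave 5 rises and no fall without Tfam+/- replicate 1, with a median of 0.20, and a median of 0.19 with trimmed mean scaling. Rspo2, which potentiates WNT receptors, was at 129 and 188 in Tfam+/- and at 686 and 696 in the double mutant (log2 change 2.14 ± 0.20, SE, limma adjusted p = 0.00369). Sfrp2, a secreted WNT antagonist, was at 169 and 169.5 against 700.3 and 705 (2.04 ± 0.11, limma adjusted p = 0.000904), and it held without any single library. The fall, named after its value was seen, was the ligand Wnt2b, at 170.4 and 158 against 35.6 and 49.5 (-1.94). Bmp4, a ligand of limb and mesoderm, was at 377 and 358 against 1081 and 1192 (1.63), and Bmp2 at 41.96 and 40.1 against 125 and 110.5 (1.5). Gdf5, a joint-forming ligand, was at 13.2 and 12.5 against 34.8 and 38.9 (1.45). The related ligand Gdf6, also named after its value was seen, fell, from 224 and 231 to 114 and 123 (-0.94).

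Guidance cues and growth factor receptors gave fewer calls. Of 62 guidance genes 9 rose and none fell (median log2 change 0.26), which is 14.5% against the 5.64% of all genes called. The list gave 7 rises without Tfam+/- replicate 1, 14 without replicate 2 and, with trimmed mean scaling, 8 rises and 3 falls. Ntng1, a membrane-anchored netrin, was at 9.85 and 13.7 in Tfam+/- and at 75.8 and 49.7 in the double mutant (2.31 ± 0.29, SE, limma adjusted p = 0.00722). Unc5c, a netrin receptor, was at 399.6 and 699 against 1680.4 and 1727, and Robo2, a SLIT receptor, at 223 and 252 against 542 and 581. The Tfam+/- replicates of Unc5c differed most, with replicate 1 the lower. Of 76 growth factors and receptors 6 rose and 3 fell, or 11.8% (median 0.14, that of all genes), and 5 and 3 without Tfam+/- replicate 1. Fgfr2 and Fgfr3, receptors of fibroblast growth factors, were at 621 and 676 against 1412 and 1497 and at 11.1 and 13.7 against 51.5 and 41.4. Flt4, the VEGF receptor of lymphatic vessels, was at 758 and 603 against 229.8 and 228 (log2 change -1.56). Without Tfam+/- replicate 1 the calls of Bmp2, Gdf5, Gdf6, Unc5c and Fgfr3 were lost (adjusted p 0.0520 to 0.0709), and without replicate 2 that of Bmp2 (0.0571). Unc5c was also lost without either WT library (up to 0.0718). Of the WNT, BMP, guidance and growth factor genes named here, only Sfrp2 stayed called without either double-mutant library; Bmp4 stayed called without replicate 1 and was lost without replicate 2, and the others reached limma adjusted p of up to 0.193.

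Secreted immune proteins moved both ways. Of 17 complement and acute phase genes 5 rose and none fell (median log2 change 0.45), or 3 without Tfam+/- replicate 1 and 2 with trimmed mean scaling. Of 32 chemokines and cytokines 3 rose and 4 fell (median 0.09, or -0.03 with trimmed mean scaling), or 1 and 3 without Tfam+/- replicate 1. Over all genes 3.32% were called higher and 2.32% lower. Ptx3, a soluble pattern receptor, was at 1082 and 1100.3 in Tfam+/- and at 2619 and 2544 in the double mutant (1.24 ± 0.10, SE, limma adjusted p = 0.00251). Complement C4b was at 8.35 and 1.94 against 27.6 and 34.4, and the protease inhibitor Serpina3n at 32.3 and 34.5 against 90.4 and 69.8. C4b has a near-identical neighbour, so its share of the reads is uncertain. Beside Cxcl15, the neutrophil chemokine Cxcl5 was at 283 and 438 against 1065 and 1119, while Ccl20, which attracts lymphocytes, was at 61.8 and 89.9 against 17.96 and 25.9. Without Tfam+/- replicate 1 Cxcl5 and Serpina3n lost their call (adjusted p = 0.127 and 0.0596), and without replicate 2 C4b did (0.0519). Cxcl5, Ccl20 and C4b lost it without either WT library (up to 0.0932), C4b without either Zbp1-/- library (up to 0.0545) and with trimmed mean scaling (0.0523). None of Ptx3, C4b, Serpina3n, Cxcl5 and Ccl20 was called without a double-mutant library (limma adjusted p 0.0530 to 0.271).

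Membrane transport, adhesion and lipid genes gave scattered calls. Of 216 solute carriers 9 rose and 2 fell, which is 5.1% and near the 5.64% of all genes, or 5 and 1 without Tfam+/- replicate 1. Slc1a3, a glutamate transporter, was at 189 and 208 in Tfam+/- and at 752 and 777 in the double mutant, and Slc15a3, a lysosomal peptide transporter, at 105 and 102 against 30.3 and 33.3. Of 38 potassium channel genes 2 rose and 3 fell (1 and 1 without Tfam+/- replicate 1), among them Kcnk3 (41.3 and 23.4 against 136 and 143) and Kcnk13 (25.1 and 23.5 against 6.57 and 8.75). These 2 leak channels moved in opposite directions. Of 63 cadherins and protocadherins 6 rose and none fell (median log2 change 0.37), or 2 without Tfam+/- replicate 1 and 4 rises with 2 falls under trimmed mean scaling. Among the 6 were Pcdhac2 at 201 and 271 against 744 and 695, Pcdhb19 at 41.6 and 52.9 against 118 and 97.4, and Cdh13 at 426 and 451 against 819 and 891. Clustered protocadherins share sequence, so the split of their reads is uncertain. Among 22 adipogenic genes 3 rose and 1 fell (2 and 1 without Tfam+/- replicate 1, and 1 and 1 with trimmed mean scaling). The lipid droplet gene Plin4 was at 58.7 and 57.2 against 177 and 167, the preadipocyte factor Zfp423 at 34.9 and 28 against 60.6 and 70.2, and the lipoprotein gene Apoe at 3388 and 2269.7 against 876 and 891. In the cholesterol list 1 of 31 rose, Mylip (425 and 419 against 683 and 692), and 1 fell, Abcg1 (114 and 96.6 against 44.1 and 38.9). Kcnk13, Pcdhb19 and Zfp423 lost their call without Tfam+/- replicate 1 (adjusted p = 0.0986, 0.0993 and 0.0670), Kcnk13 and Zfp423 without replicate 2 (0.0601 and 0.0796), and the 3 without either WT library (up to 0.0819). Zfp423 also lost it without either Zbp1-/- library (0.0520 and 0.0523) and with trimmed mean scaling (0.0648). Without a double-mutant library none of these 12 was called (limma adjusted p 0.0530 to 0.294).

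Outside the interferon list, the largest falls were of low-abundance and cytoskeletal genes. Arhgap22, a GTPase-activating protein for RAC1, was at 382 and 306 in Tfam+/- and at 44.9 and 51.2 in the double mutant (log2 change -2.81 ± 0.16, SE, limma adjusted p = 0.00131). Ankrd1, a stretch- and YAP-responsive gene, was at 1198 and 1218 against 256 and 245 (-2.27 ± 0.10, limma adjusted p = 0.000711). Both held without any single library, and in both Zbp1-/- cells were also low, at 58.6 and 66.1 and at 331 and 346, against 310 and 299 and 903 and 928 in WT. Mpzl2, an adhesion protein, was at 29.9 and 23.4 against 4.88 and 4.05, and Mmp9, a gelatinase, at 105 and 99.7 against 18.4 and 11.5. Sprr2k, a cornified envelope gene with close paralogs that may share its reads, was at 80.3 and 78.6 against 16.1 and 17.7. Lyl1, a haematopoietic transcription factor, was at 23.7 and 24.96 against 3.69 and 2.86, Stmn4, a neuronal microtubule gene, at 39.6 and 31.8 against 4.603 and 6.19, and Il21r, a cytokine receptor, at 21.1 and 26.3 against 1.85 and 3.84. These last 3 are low, and without Tfam+/- replicate 1 they lost their call (adjusted p = 0.0600, 0.0687 and 0.0513); Il21r also did without replicate 2 (0.0511). Without a double-mutant library all but Arhgap22 and Ankrd1 lost theirs, with limma adjusted p up to 0.133.

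Of 38 contractile genes tested 7 fell and none rose, against 2.32% and 3.32% of all genes. The median log2 change was -0.31, 13 of the 38 were above 0, and 4 fell without Tfam+/- replicate 1. Myh11, smooth muscle myosin, was at 1145 and 977 in Tfam+/- and at 525 and 486 in the double mutant (-1.06 ± 0.12, SE, limma adjusted p = 0.00592), and Kcnmb1, a subunit of the smooth muscle calcium-activated channel, at 52.5 and 76.1 against 15.5 and 16.1. Ptgis, prostacyclin synthase, was at 425 and 313 against 164 and 167, and lost its call without Tfam+/- replicate 1 (adjusted p = 0.0764) and without either WT library (0.0676 and 0.0667). Of 49 YAP target and immediate early genes 3 rose and 3 fell (2 and 3 without Tfam+/- replicate 1). Beside Ankrd1, the ectonucleotidase Nt5e was at 60.5 and 70.3 against 174 and 175, and the early growth response gene Egr3 at 32.6 and 27.8 against 69.9 and 69.6. The list therefore had no common direction. Egr3 lost its call without Tfam+/- replicate 2 (0.0571) and without either WT library (0.0689 and 0.0691). Without a double-mutant library Ankrd1 alone of these 6 stayed called, with limma adjusted p of the others up to 0.186.

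**Figure D4:**
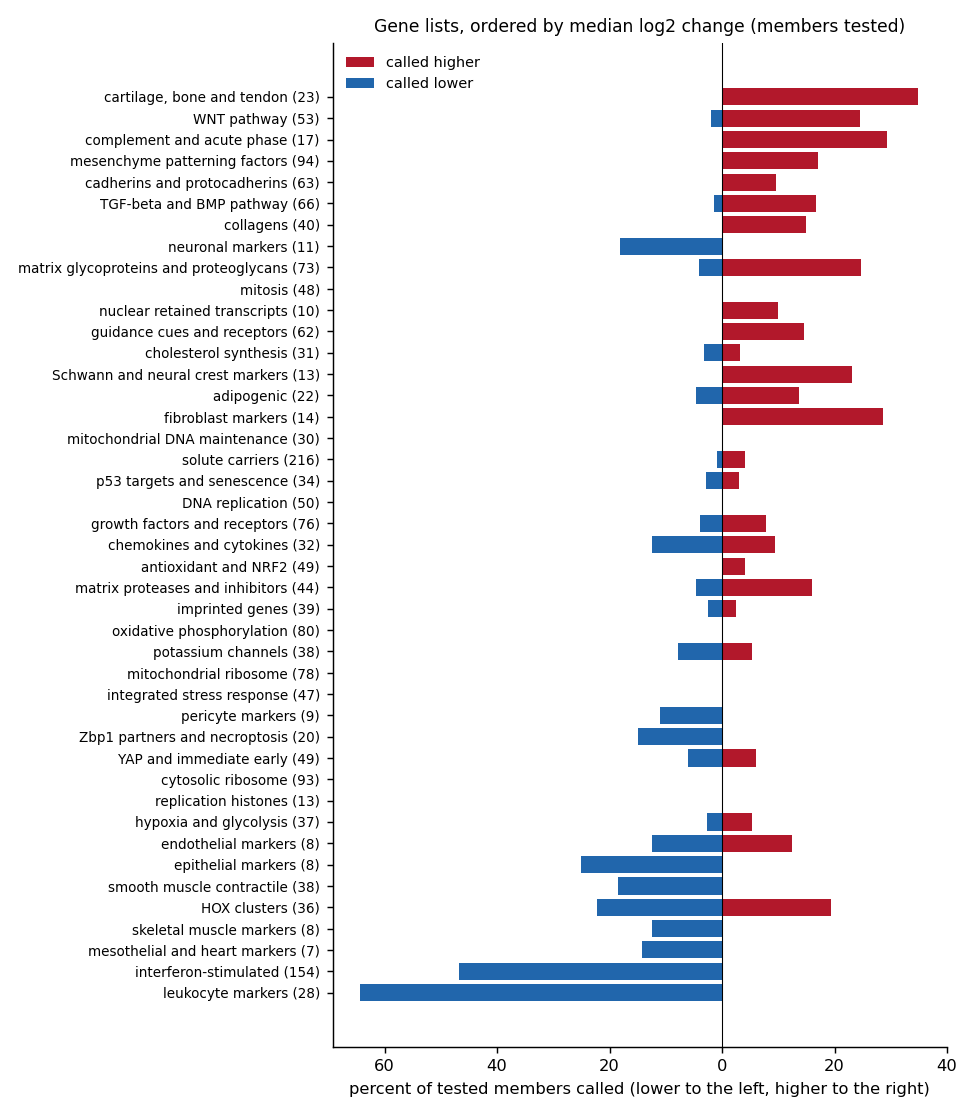
Percent of tested members called higher (red, to the right) or lower (blue, to the left) for each gene list, ordered by median log2 change, with the number of members tested in parentheses. Cartilage, WNT and patterning lists are near the top with 8 of 23, 13 of 53 and 16 of 94 called higher, and interferon and leukocyte lists are at the bottom with 72 of 154 and 18 of 28 called lower.

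Markers of other cell types were measured to describe the cultures. Over all genes 3.32% were called higher and 2.32% lower. Fibroblast markers were abundant, with all 14 tested and summed levels of 651372 and 548394 in Tfam+/- and 637937 and 630826 in the double mutant, and 4 of the 14 rose (2 without Tfam+/- replicate 1). Twist1, a mesenchymal transcription factor, was at 669 and 765 against 1350.2 and 1339, and Col3a1, a fibrillar collagen, at 49249 and 43766 against 69949.6 and 69794 (log2 change 0.59). Of leukocyte markers 18 of 28 fell (13 without Tfam+/- replicate 1), all 28 were below 0, and the median log2 change was -1.24. Their summed level was 10546 and 9355 normalized counts in Tfam+/- and 4030.5 and 4165 in the double mutant, and none was at 0 in all 4 libraries. Laptm5, a lysosomal protein of blood cells, was at 413 and 370.1 against 139 and 140.3, C1qb, a complement chain made by macrophages, at 792 and 541 against 188 and 209, and Spi1, the macrophage factor PU.1, at 78.1 and 65.4 against 20.7 and 26.3. Leukocyte markers summed to 5152 and 4944 in Zbp1-/- cells and to 7858 and 7806 in WT. Their median log2 change in Zbp1-/- against WT was -0.52, against 0.28 for the interferon list and 0.11 for all genes tested. The leukocyte markers moved with the falls, and their part in the falls of Lyl1, Il21r, Mmp9, Apoe and the interferon genes was not tested. In bulk RNA, fewer cells of a type and less RNA per cell cannot be told apart.

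Markers of further cell types were low or mixed. The shares called over all genes were again 3.32% higher and 2.32% lower. Of 8 endothelial markers tested Erg rose, from 59.6 and 71.5 to 289 and 332, and Emcn fell, from 70.4 and 73.5 to 18.9 and 15.7, with Cldn5 and Sox17 at 0 in all 4 libraries and Cdh5 below the filter. This list gave 2 rises and 1 fall without Tfam+/- replicate 1. The 20 Schwann and neural crest markers summed to 1084 and 1248 in Tfam+/- and 1770.3 and 1823 in the double mutant. Of 13 tested 3 rose (2 without Tfam+/- replicate 1), Tfap2b (190.2 and 217 against 701 and 688), Tfap2a (70.8 and 98.5 against 234 and 234) and S100b (14.5 and 12.2 against 29.9 and 27.1), while the melanocyte genes Dct and Tyr were at 0. The first 2 are also transcription factors of craniofacial and limb mesenchyme. Among epithelial markers Krt18 and Krt8, keratins that fibroblast cultures can also express, fell from 230.1 and 150.3 to 57.01 and 60.96 and from 169 and 121 to 55.1 and 70.3, with Esrp1 and Ovol1 at 0, and 1 of the 2 was called without Tfam+/- replicate 1. Of 11 neuronal markers Gap43 and Nes fell and none rose, but 6 of the 11 were above 0, 2 with a gap of at least 1, and the median log2 change was 0.30. Of 9 pericyte markers Mcam fell, and 4 of the 9 were above 0. The muscle actin Acta1, of 8 skeletal muscle markers, and the mesothelial marker Upk3b, of 7, fell. Summed levels in Tfam+/- and in the double mutant were 5335 and 5006 against 3939.9 and 4010.2 for neuronal, 1089 and 854 against 444 and 434 for skeletal muscle, and 2949.7 and 2483 against 2065 and 2112 for mesothelial and heart markers. Their part in the results was not tested. Spi1, S100b, Krt8 and Lum lost their call without Tfam+/- replicate 1 (adjusted p = 0.0593, 0.0860, 0.144 and 0.0632), S100b without Tfam+/- replicate 2 (0.0825), and S100b, Krt8, Lum and Col3a1 without either WT library (up to 0.120). S100b was also lost without either Zbp1-/- library (up to 0.0597) and with trimmed mean scaling (0.0706). None of the markers named was called without a double-mutant library (limma adjusted p 0.0530 to 0.321).

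Interferon-stimulated genes were the largest single group of falls. Of 154 tested 72 fell and none rose, against 2.32% and 3.32% of all genes, with a median log2 change of -1.15. The list gave 56 falls and 1 rise without Tfam+/- replicate 1. Usp18, which restrains interferon receptor signalling, was at 761 and 625 in Tfam+/- and at 59.5 and 71.6 in the double mutant (log2 change -3.38 ± 0.21, SE, limma adjusted p = 0.00160), and WT was at 26.4 and 21.3. Oas1a, an RNA-activated synthetase, was at 222 and 189 against 25.2 and 30.04, and Ifi27l2b, a mitochondrial interferon-induced protein, at 111 and 84.6 against 13.2 and 12.8. Isg15, the ubiquitin-like modifier whose promoter is shown above and which was named after its value was seen, was at 1409.5 and 1038 against 150.4 and 179.7. Both double-mutant libraries of Usp18 and Isg15 were still above both WT libraries. Oas1a and Ifi27l2b have close paralogs, so their share of reads is uncertain. Usp18 and Oas1a held without any single library, while Isg15, Ifi27l2b and Zbp1 lost their call without either double-mutant library (limma adjusted p up to 0.0829). Of 20 genes that work with ZBP1 in necroptosis and inflammation 3 fell and none rose, against 2.32% and 3.32% of all genes. They were the inflammasome sensor Nlrp3 (17 and 18.7 against 3.75 and 5.84), the inhibitor Tnfaip3 (164 and 183 against 107 and 102) and the necroptosis effector Mlkl (396 and 356 against 249.6 and 258). These were marginal: without Tfam+/- replicate 1 none was called (adjusted p = 0.109, 0.0726 and 0.137), nor without replicate 2 (0.0786, 0.0770 and 0.0503), either WT library (up to 0.128) or a double-mutant library (up to 0.326), and Nlrp3 and Mlkl were not called without either Zbp1-/- library (up to 0.0525).

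Lists of core cell functions gave no calls in the fit used here. None of 80 oxidative phosphorylation genes, 78 mitochondrial ribosome genes, 30 genes of mitochondrial DNA maintenance, 93 cytosolic ribosome genes, 50 DNA replication genes, 48 mitosis genes or 47 integrated stress response genes passed the limma test. Their median log2 changes were 0.01, -0.01, 0.17, -0.09, 0.15, 0.27 and -0.02, against 0.14 for all genes. With trimmed mean scaling, where the median of all genes is 0.03, the same medians were -0.10, -0.13, 0.06, -0.20, 0.03, 0.16 and -0.13. With Tfam+/- replicate 1 left out, that of the cytosolic ribosome was 0.07 and that of the stress response 0.09, so these directions depended on scaling or on that library. In the fit without Tfam+/- replicate 2, 1 replication, 2 mitosis and 1 stress response gene were called higher, where 4.18% of all genes were. With a term shared by the 2 shifted libraries 196 of the 426 genes in these 7 lists were called, 190 higher and 6 lower. That is 46.0%, near the 45.6% of all genes called in that fit. Over all 13267 genes 4699 were called higher and 1350 lower, so the calls in these lists leaned more to the higher side.

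The change with Zbp1 loss was also measured where both Tfam alleles were present, in Zbp1-/- against WT. Its libraries gave no part of the first log2 change, but all 8 libraries set the spread used for the calls in both comparisons. In Zbp1-/- against WT 119 genes were called higher (0.897%) and 22 lower (0.166%), together 1.06% of genes tested. Of the 440 rises of the double mutant, 355 (80.7%) were above 0 in Zbp1-/- against WT, against 60.6% of all genes tested, with a median log2 change of 0.40 against 0.11. Called there were 59 higher and 1 lower. Of the 236 falls outside the interferon list 28.0% were above 0 (median -0.28), and 16 were called lower. The 72 interferon falls went the other way, with 81.9% above 0 and a median of 0.39. Penk, Col10a1 and Fat4 rose in both comparisons, by 0.94, 0.81 and 0.74 in Zbp1-/- against WT (limma adjusted p = 0.0304, 0.0246 and 0.0195). Sfrp2, Fbn2, Anxa8 and Slc1a3 also rose in both, and Arhgap22 and Ankrd1 fell in both. These calls rest on few libraries: no gene was called in Zbp1-/- against WT without either WT library (1103 and 1051 genes at an unadjusted p under 0.05), and 28 and 9 without Zbp1-/- replicates 1 and 2.

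The difference between both comparisons, the interaction, was called for 88 genes (0.663%), above 0 for 29 (0.219%) and below 0 for 59 (0.445%). Among the 440 rises it was above 0 for 27, among the 236 other falls below 0 for 14, and among the 72 interferon falls below 0 for 36. Each of these sets was chosen on the first of the 2 changes compared, in the same libraries. A difference of the same sign was therefore favoured in advance. Hoxd13 rose by 2.23 in the double mutant and had a log2 change of -0.48 in Zbp1-/- against WT (difference 2.71 ± 0.34, SE, limma adjusted p = 0.0299). Prg4 changed by 2.40 and -0.26 (difference 2.66, adjusted p = 0.0187), and Cxcl15 by 4.02 and 0.13 (difference 3.89, adjusted p = 0.0199). Phyhip, at 3.66 and 4.41, and Rims2, at 2.57 and 2.32, were called higher in both, and their difference did not pass the test (limma adjusted p = 0.501 and 0.729). No interaction was called without either WT library, without either double-mutant library or without Zbp1-/- replicate 2 (1005 to 1210 genes at an unadjusted p under 0.05), and 33 were without Tfam+/- replicate 1.

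**Figure D5:**
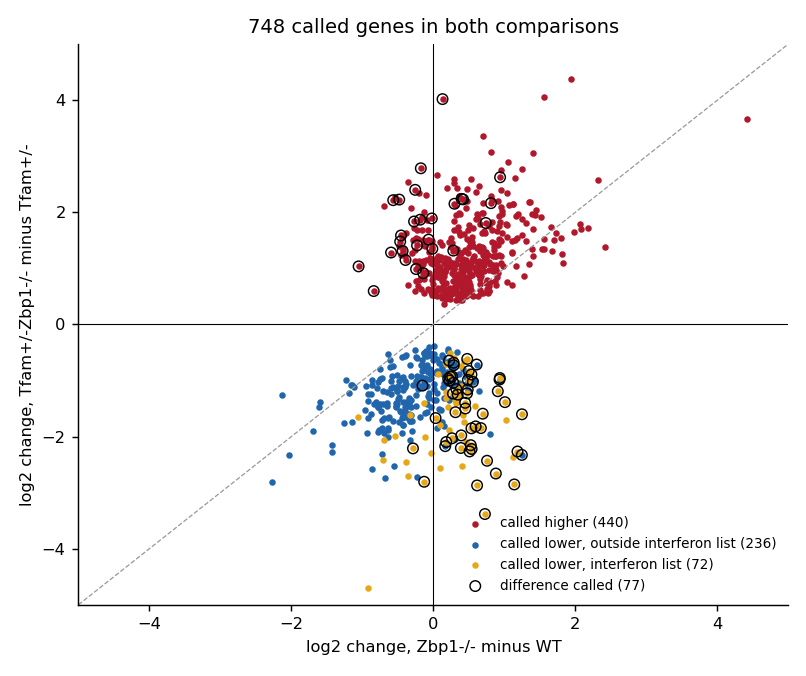
Log2 change in Tfam+/-Zbp1-/- against Tfam+/- (vertical axis) and in Zbp1-/- against WT (horizontal axis) for the 748 called genes; the dashed line marks equal changes and black rings mark the 77 genes whose difference between the comparisons was called. Most of the 440 rises (red) lie right of 0, most of the 236 other falls (blue) lie left of 0, and most of the 72 interferon falls (yellow) lie below and right of 0.

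Genes near the Zbp1 locus were looked at separately. Zbp1 lies at chr2:173206612-173218959 (GRCm38.p6), and of 46 tested genes within 5 Mb of it none was called. Large changes were still found among these 46. The highest log2 change of all genes tested, 7.71, was there and was not called (limma adjusted p = 0.208). A change of -3.03 there was not called either (limma adjusted p = 0.637). Within 10 Mb 9 of 156 genes were called (5.77%), and within 20 Mb 15 of 242 (6.2%), near the 5.64% of all genes. By chromosome the share called ran from 4.23% on chromosome 8 to 8.40% on chromosome 18. At the edge of the filter on low values, Saxo2 had a mean of 10.005 over the 8 libraries and was tested, and Spink2, with 9.9993, was not.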

How the data were processed

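The authors deposited 1 table of normalized counts per gene for the 8 libraries, read here as a signal (normalized counts that are not whole numbers), with a single column per library. Per the submitters' processing notes, reads were processed with STAR 2.6.1a and Salmon on mm10. The sources used here do not say how the deposited values were scaled or whether strand was used. Whole reads could not be recovered: between 22.1% and 34.8% of low values lay within 0.01 of a whole multiple of the commonest low value, so no count model was run.

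Genes that averaged 10 or more normalized counts in the 8 libraries (13267 of 24972) were tested as log2(normalized count + 1) in limma 3.58.1 (R 4.3.3; lmFit, eBayes with a mean-variance trend; all 4 genotypes in 1 fit, 4 residual and 2.77 prior degrees of freedom; two-sided; Benjamini-Hochberg over all genes tested; called under 0.05). The script was tested on simulated data. An exact permutation test of 2 against 2 libraries cannot go below p = 0.333, so none is given for single genes. Named genes were, among called genes outside the interferon list, the 16 largest upward gaps, the 10 largest with a double-mutant mean of at least 1000 and the 8 largest downward gaps, then 4 interferon falls and up to 3 called genes per list. Genes named outside this rule, after their values were seen, are marked in the text. The comparison, its 43 gene lists and this rule were chosen with earlier results of these data known. The precision is set by 2 libraries per genotype, and read depth per library is unknown. Gene positions and promoters are RefSeq on GRCm38.p6, to which 97.7% of gene names matched.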

Additional observations from a re-analysis of the deposited data

Results flagged for a closer look

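For 20 of the genes named above, the change with Zbp1 loss differed between Tfam+/- and Tfam-intact cells by the interaction term of the limma fit (adjusted p under 0.05). Each value is the log2 change in Tfam+/-Zbp1-/- against Tfam+/- minus that in Zbp1-/- against WT. The genes were named for the first of these 2 changes, so a difference of the same sign was favoured in advance. Over all genes tested, the interaction was called for 0.663%. Values above 0 were 3.89 for Cxcl15, 2.96 for Adcyap1, 2.71 for Hoxd13, 2.66 for Prg4, 2.04 for Hoxd11, 1.84 for Lhx2, 1.81 for Erg, 1.68 for Penk, 1.35 for Col10a1 and 1.07 for Fat4. Penk, Col10a1 and Fat4 rose in both comparisons, and the difference is one of size. Values below 0 were -4.11 for Usp18, -3.99 for Oas1a, -3.49 for Isg15, -2.68 for Ifi27l2b, -2.34 for Sprr2k, -1.58 for Gap43, -1.32 for Hoxc10, -1.18 for Hoxb9, -1.02 for Tnc and -0.94 for Loxl2. None of the 20 was called without either WT library, without either double-mutant library or without Zbp1-/- replicate 2, fits in which no interaction was called at all.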

How the results depend on the processing

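Counts of calls moved far with the settings. None of the 121 genes named with a value reversed in any alternative that could test it. That carries little weight, since nearly all were named as called genes whose libraries did not overlap. Leaving out 1 library could not reverse such genes. The 440 rises and 308 falls became 211 and 148 with only the genotypes compared in the fit, 4699 and 1350 with a term shared by Tfam+/- replicate 1 and Zbp1-/- replicate 2, and 4470 and 1309 in the 6 libraries without these 2; their cause was not tested. Zbp1-/- against WT (141 calls) gave 1, 4717 and 4548 in the same order, 87 with no filter on low values and 81 with trimmed mean scaling. The interaction (88 calls) gave 2240 with the shared term, 2534 in the 6 libraries and 47 with no filter. Leaving out 1 library at a time, rises ranged from 5 to 555, falls from 6 to 348, calls in Zbp1-/- against WT from 0 to 223 and interactions from 0 to 126. Pseudocounts of 5 and 0.1, a mean of at least 50 and a prior without trend kept each count within 1.5 times, as did trimmed mean scaling for the first comparison and the interaction.

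The labels do not pair libraries by replicate number, and deviations of same-numbered libraries correlated between -0.70 and 0.06. With the replicate block, 203 genes were called higher, 148 lower, 1 in Zbp1-/- against WT and 0 in the interaction (1381 at an unadjusted p under 0.05 in limma). The planned edgeR fit was not run, since whole reads were not recovered. With 2 libraries per genotype and 1 shifted library, small changes were not detectable, and a gene that was not called may still differ.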
